A study of Mus musculus with 8 samples.

Results

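The cornified envelope genes described here are 50 of the 55536 genes in the count table. They were taken by name: the small proline-rich genes (Sprr followed by a digit, 17 genes), the late cornified envelope genes (Lce followed by a digit, 21 genes), and 12 single genes, Lor, Flg, Flg2, Ivl, Crnn, Hrnr, Rptn, Tchh, Tchhl1, Evpl, Ppl and Cnfn. The cornified envelope is the shell of crosslinked protein that replaces the plasma membrane of a keratinocyte as it dies at the surface of the skin. Envoplakin and periplakin, encoded by Evpl and Ppl, are laid down first under the membrane, transglutaminases then join involucrin, loricrin and the small proline-rich and late envelope proteins onto that scaffold, and filaggrin and its relatives bundle keratin inside. A pancreatic β cell makes no such envelope. Klf4, a zinc-finger transcription factor, is known in skin as a factor of late keratinocyte differentiation and of barrier formation.

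Polyadenylated RNA came from MIN6 cells, a β-cell line from a mouse pancreatic tumour, labelled wild type by genotype, after a 48 h lipid transfection with Lipofectamine 3000. The 4 control libraries received the empty vector pcDNA 3 and the 4 Klf4-transfected libraries received pGloMyc-Klf4. The 2 plasmids differ in name, so that an effect of the backbone cannot be told apart from that of Klf4. Replicates 1 and 2 of each group form batch 1 and replicates 3 and 4 form batch 2 of the labels, and the series calls the replicates biological. The extraction text of the labels mentions islets, while all samples are named MIN6. Total counts ran from 45417853 to 52731176 per library, so that 3 counts correspond to between 0.0569 and 0.0663 CPM (read counts normalised for the size of the library). Klf4 itself, the check of the labels, measured 36.1 to 42.8 CPM in the control libraries and 4532 to 5853 CPM in the Klf4-transfected libraries, plasmid and endogenous transcripts together. The β-cell markers Ins1, Ins2, Pdx1, Nkx6-1, Iapp, Slc2a2 and Mafa had a summed level of 24306 to 31097 CPM in control and 22744 to 31409 CPM in Klf4-transfected libraries. Of these 7 markers 3 fell (Iapp, Pdx1 and Mafa, by 0.07, 0.12 and 0.18 on the log2 scale) and none rose.

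Most of the cornified envelope set stayed without reads. No library of either group held a single count for 36 of the 50 members. A count in at least 1 control library was found for 7 members (14%) and in at least 1 Klf4-transfected library for 13 members (26%), where the same shares over all 22028 protein-coding genes were 79.4% and 82.5%. The members with reads were few and unlike each other: the 2 plakin genes, Evpl and Ppl, made up 98.4% to 98.8% of all member counts in control libraries and 97% to 97.4% in Klf4-transfected libraries. The other 48 members together gave 60, 74, 32 and 36 counts in control replicates 1 to 4 and 262, 205, 213 and 234 counts in Klf4-transfected replicates 1 to 4. In that sum the groups did not overlap.

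Of the 50 members, 6 rose in Klf4-transfected cells at an adjusted p under 0.05 (edgeR's quasi-likelihood test with a batch term, Benjamini-Hochberg adjustment over 18266 tested genes) and none of the tested members fell. Of all tested genes 36.6% changed in either direction, 21.1% higher and 15.5% lower. Counted over whole sets, 12% of the members were called higher against 16.3% of all protein-coding genes, so that the share of raised members was near the background. The remaining 44 members had too few counts to enter the test. Among the 6 that entered, Evpl, Ppl and Tchh exceeded the filter's level of 0.204 CPM in every control library, and all 3 rose, where 18.1% of the 16203 tested genes of that kind were higher. Sprr1a and Cnfn exceeded it in no control library, so that they could hardly have entered without being higher in Klf4-transfected libraries. Lor exceeded it in 2 control and 4 Klf4-transfected libraries, so its entry rested on the Klf4-transfected libraries in part. Within single batches, where 15.9% (batch 1) and 20.1% (batch 2) of all tested genes were higher, Evpl and Ppl passed in both batches and Tchh passed in batch 2 and missed in batch 1, a difference between batches that itself missed the threshold. Sprr1a, Cnfn, Rptn and Tchhl1, and Lor in batch 1, entered the fits of single batches through their Klf4-transfected libraries too. Those calls are not counted as support. In batch 2 the control libraries of Lor, with 10 and 12 counts, reached that fit's filter level by themselves, and Lor passed there (log2 fold change 2.61). In RNA from a whole culture, more cells with a transcript and more transcript per cell cannot be told apart.

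**Figure D1:**
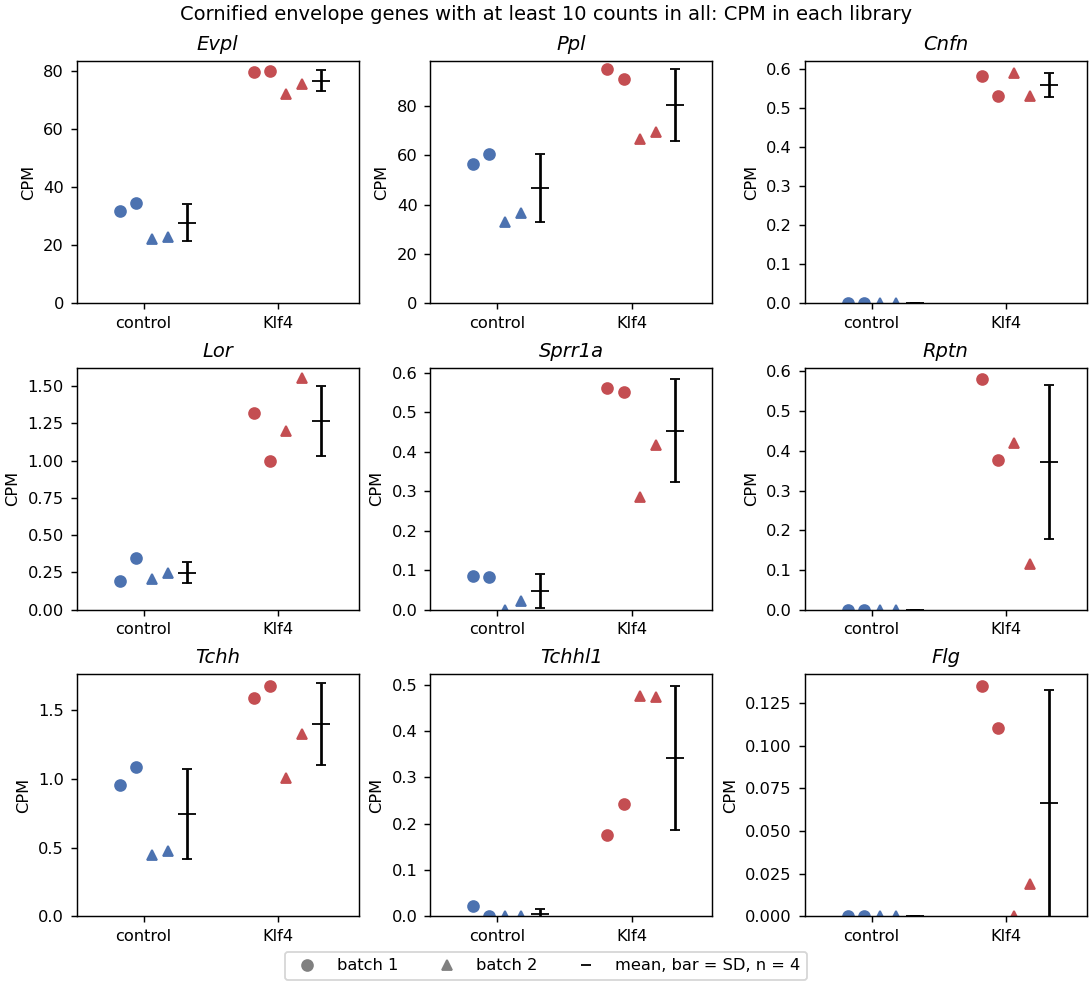
Each panel plots 1 of the 9 members with at least 10 counts over all libraries, with CPM on a linear axis from 0 and control and Klf4-transfected libraries side by side. Circles are batch 1, triangles are batch 2, and the black mark and bar are the mean and SD of 4 libraries. Evpl, Ppl, Cnfn, Lor, Sprr1a, Rptn and Tchhl1 show no overlap between groups, while Tchh and Flg do.

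The plakins, which begin the envelope at the membrane and also belong to desmosomes, were already well expressed in control MIN6 cells and rose further. Evpl (ENSMUSG00000034282, chromosome 11, 116220559 to 116238077, minus strand) measured 31.8, 34.5, 22.1 and 22.7 CPM in control replicates 1 to 4 and 79.5, 79.9, 72 and 75.4 CPM in Klf4-transfected replicates 1 to 4. The groups did not overlap, and the control libraries of batch 2 lay below those of batch 1. The mean went from 27.8 ± 6.32 to 76.7 ± 3.75 CPM (SD, n = 4), a 2.76-fold difference (log2 fold change 1.48, SE 0.06, edgeR adjusted p = 7.1e-15). Ppl (ENSMUSG00000039457, chromosome 16, 5086291 to 5132421, minus strand) measured 56.4, 60.7, 33 and 36.7 CPM in control and 95, 91.2, 66.5 and 69.4 CPM in Klf4-transfected libraries. All Klf4-transfected libraries lay above all control libraries, and batch 2 lay below batch 1 in both groups. The mean went from 46.7 ± 13.9 to 80.5 ± 14.6 CPM (SD, n = 4), 1.72-fold (log2 fold change 0.81, SE 0.05, edgeR adjusted p = 7.55e-12). Per kilobase of exon Evpl and Ppl stood at 4.35 and 6.78 CPM in control cells and at 12 and 11.7 CPM in Klf4-transfected cells.

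The rise of Evpl was unequal in the 2 batches. Its log2 fold change was 1.26 in batch 1 and 1.73 in batch 2, a difference of 0.45 (adjusted p = 0.00107 in edgeR's interaction test, adjusted p = 8.7e-05 in DESeq2). Such a difference was called for 0.766% of tested genes. In batch 1 the mean level went from 33.2 to 79.7 CPM and in batch 2 from 22.4 to 73.7 CPM. The added level was thus 46.5 CPM in batch 1 and 51.3 CPM in batch 2. For Ppl the log2 fold changes were 0.66 and 0.97, a difference of 0.29 that missed the threshold (edgeR interaction test, adjusted p = 0.0523). For Lor, Sprr1a, Tchh and Cnfn the edgeR adjusted p of this difference was 0.619 or higher.

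**Figure D2:**
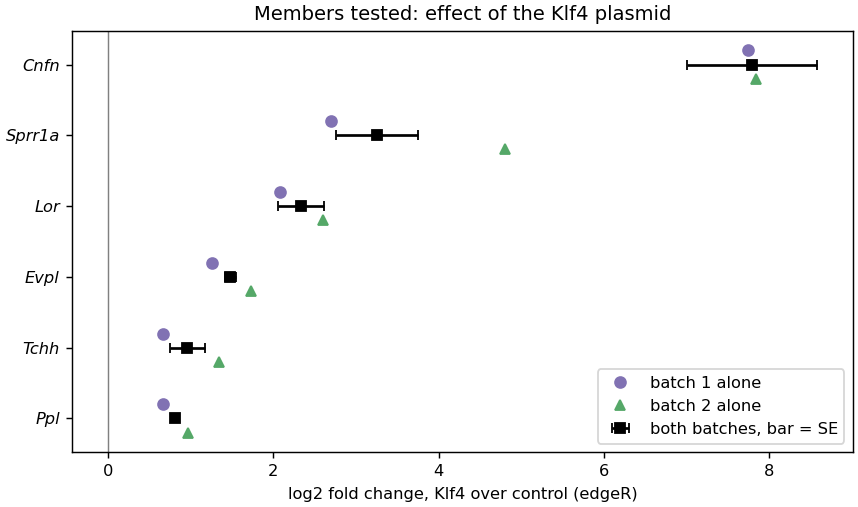
Log2 fold change of Klf4-transfected over control libraries (horizontal axis) for the 6 tested members. Squares with bars are the fit on both batches with its SE, circles are batch 1 alone and triangles are batch 2 alone. Both batches lie above 0 for each of these members, and batch 2 lies farther from 0 than batch 1, with Cnfn nearly equal at 7.75 and 7.84.

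Members with few or no control reads are shown first by their promoters. Cnfn, Sprr1a, Rptn and Tchhl1 had at most 4 counts in any control library, while Lor had 9 to 17. The windows run from 250 bases before to 50 bases after the transcription start (RefSeq, GRCm38.p6, gene strand, 5′ to 3′), and Ivl, encoding involucrin, is set beside them as a classical envelope gene with no count in any library. Capitals mark 5 motifs searched on both strands. CACCC (or its reverse GGGTG) and the longer forms GGGTGTGG and GGGCGTGG are of the type bound by Krüppel-like factors. TGANTCA is a loose form of the AP-1 site with any base at N, and the last motif is TATAAA. At N, Rptn and Tchhl1 hold T and A, while Lor, Sprr1a and Ivl hold G or C. GGGTGTGG contains GGGTG, so those matches overlap, and in Sprr1a 1 GGGTG runs into a TGANTCA match.
Cnfn, chr7:25369675-25369974, minus strand: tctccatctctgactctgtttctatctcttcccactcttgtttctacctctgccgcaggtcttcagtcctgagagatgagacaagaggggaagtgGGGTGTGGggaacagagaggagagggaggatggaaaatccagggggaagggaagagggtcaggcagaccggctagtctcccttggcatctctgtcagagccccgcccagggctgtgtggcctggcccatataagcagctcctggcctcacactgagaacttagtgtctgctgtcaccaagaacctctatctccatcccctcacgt
Lor, chr3:92083093-92083392, minus strand: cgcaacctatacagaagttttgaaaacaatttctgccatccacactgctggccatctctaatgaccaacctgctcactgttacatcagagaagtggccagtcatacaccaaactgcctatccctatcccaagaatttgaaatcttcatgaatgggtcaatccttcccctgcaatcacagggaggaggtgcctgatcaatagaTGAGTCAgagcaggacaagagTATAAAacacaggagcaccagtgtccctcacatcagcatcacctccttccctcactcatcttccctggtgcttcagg
Sprr1a, chr3:92485832-92486131, minus strand: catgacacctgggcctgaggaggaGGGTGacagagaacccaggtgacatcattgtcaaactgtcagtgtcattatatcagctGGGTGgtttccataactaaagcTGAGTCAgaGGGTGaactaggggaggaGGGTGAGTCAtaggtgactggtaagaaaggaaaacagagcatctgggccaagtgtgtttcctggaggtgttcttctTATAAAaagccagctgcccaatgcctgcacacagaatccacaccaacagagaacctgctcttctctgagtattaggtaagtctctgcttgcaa
Rptn, chr3:93393449-93393748, plus strand: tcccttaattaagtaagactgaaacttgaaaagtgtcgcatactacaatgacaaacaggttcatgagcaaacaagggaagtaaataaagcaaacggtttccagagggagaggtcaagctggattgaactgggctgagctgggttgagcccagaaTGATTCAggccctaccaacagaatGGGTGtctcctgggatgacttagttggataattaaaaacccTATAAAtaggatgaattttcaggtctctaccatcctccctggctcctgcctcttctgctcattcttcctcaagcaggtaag
Tchhl1, chr3:93468504-93468803, plus strand: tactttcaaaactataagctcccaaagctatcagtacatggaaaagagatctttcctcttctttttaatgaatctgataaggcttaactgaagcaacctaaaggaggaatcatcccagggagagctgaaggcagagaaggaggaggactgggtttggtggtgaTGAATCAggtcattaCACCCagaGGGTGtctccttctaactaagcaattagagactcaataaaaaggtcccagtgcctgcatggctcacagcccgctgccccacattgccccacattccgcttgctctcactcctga
Ivl, chr3:92573686-92573985, minus strand: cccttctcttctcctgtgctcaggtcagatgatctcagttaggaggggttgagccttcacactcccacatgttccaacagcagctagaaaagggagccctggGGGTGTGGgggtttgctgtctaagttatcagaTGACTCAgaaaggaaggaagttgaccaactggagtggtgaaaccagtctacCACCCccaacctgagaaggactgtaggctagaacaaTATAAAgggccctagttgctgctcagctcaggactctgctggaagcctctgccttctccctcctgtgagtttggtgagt

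Of the 44 members with a promoter in the table, 23 (52.3%) held the short KLF-type motif CACCC on either strand, against 57.5% of all 32851 promoters of the same length. The strands were unequal: on the gene strand alone, CACCC was in 4 of 44 member promoters (9.09%) against 33.5% of all promoters. On either strand it was in 5 of 7 promoters of members with at least 10 counts and in 15 of 32 of members with no count. Sprr1a held 4 matches, Tchhl1 held 2, and Lor, which rose, held none. GGGTGTGG was in 2 member promoters, those of the raised Cnfn and the silent Ivl, and in 3.56% of all promoters. GGGCGTGG was in no member promoter and in 5.33% of all promoters. TGANTCA was in 16 of 44 member promoters (36.4%) against 7.81% of all, in 5 of 7 with at least 10 counts and 8 of 32 with none. TATAAA was in 20 of 44 (45.5%) against 13.6% of all. The silent Ivl thus held the KLF-type, AP-1 and TATA letters in the same window. Members within a family have like promoters and are not independent, and a match describes letters only.

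**Figure D3:**
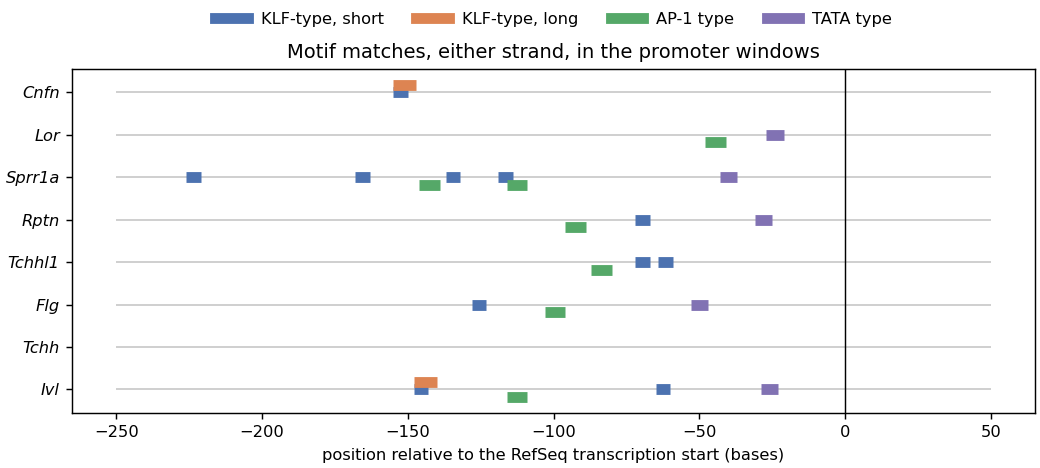
Positions of motif matches on either strand in the promoter windows of the 7 members with at least 10 counts and a promoter in the table, and of the silent Ivl. The horizontal axis is the distance in bases from the RefSeq transcription start, and each colour is 1 motif type. Sprr1a carries 4 short KLF-type matches and 2 AP-1 type matches, and Tchh carries no match.

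Cornifelin and loricrin are crosslinked precursors of the mature envelope, and both genes were higher in every Klf4-transfected library. Cnfn (ENSMUSG00000063651, minus strand of chromosome 7, 25367620 to 25369724) had 0 counts in all 4 control libraries and 30, 24, 31 and 28 counts in Klf4-transfected replicates 1 to 4. Its 4 Klf4-transfected values of 0.53 to 0.589 CPM lay close together in both batches. The mean of 0.558 ± 0.0317 CPM (SD, n = 4) stood at least 8.98-fold above a floor of 3 counts per control library (edgeR adjusted p = 1.27e-07). Lor (ENSMUSG00000043165, minus strand of chromosome 3, 92080271 to 92083142), for loricrin, the main protein of the epidermal envelope, had 9, 17, 10 and 12 counts in control and 68, 45, 63 and 82 counts in Klf4-transfected libraries. The lowest Klf4-transfected library was above the highest control library. The mean rose from 0.248 ± 0.0719 to 1.27 ± 0.234 CPM (SD, n = 4), 5.1-fold (log2 fold change 2.34 with an SE of 0.28, edgeR adjusted p = 3.88e-07), and by 2.08 and 2.61 on the log2 scale within batches 1 and 2. Ivl, for involucrin, the early precursor of the same envelope, had 0 counts in all 8 libraries. Per kilobase of exon Cnfn and Lor reached 0.776 and 0.711 CPM in Klf4-transfected cells, well under the 12 and 11.7 CPM of Evpl and Ppl.

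Of the 17 small proline-rich genes, short crosslinking proteins that bridge other envelope proteins, only Sprr1a had enough counts to be tested, and it passed. It was tested only because of its Klf4-transfected libraries, so that its call is fixed in part by the filter. Sprr1a (ENSMUSG00000050359, minus strand of chromosome 3, 92483952 to 92485895) had 4, 4, 0 and 1 counts in control and 29, 25, 15 and 22 counts in Klf4-transfected libraries. The groups did not overlap, and both groups were lower in batch 2. The mean rose from 0.047 ± 0.0431 to 0.454 ± 0.13 CPM (SD, n = 4), 9.67-fold (log2 fold change 3.26 with an SE of 0.49, edgeR adjusted p = 1.37e-05). In batches 1 and 2 it was 2.69 and 4.81, the latter on 1 control count in batch 2. Sprr2b had 1 count in Klf4-transfected replicate 3 and Sprr2e had 2 counts in Klf4-transfected replicate 2. The other 14 family members, with Sprr1b, the nearest relative of Sprr1a, Sprr3 and Sprr4 among them, had none. Of the 50-base words in the transcripts of Sprr2a1, Sprr2a2 and Sprr2a3, 96.3%, 96.5% and 61.1% also occur in other genes (Sprr2a1 and Sprr2a2 also overlap on 1 strand), so that their 0 counts are uncertain. Sprr1a, Sprr1b and Sprr3 share no such word.

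The late cornified envelope genes, which are switched on in the outermost living layers of skin, had almost no reads as a family. Over all 8 libraries the 21 genes gave 1 count, for Lce3e in control replicate 1, and 0 counts in the Klf4-transfected group. A count of 0 allows up to 3 counts, or 0.0569 to 0.0663 CPM in a Klf4-transfected library, for counting error only. Lce1m and Lce6a share no 50-base word with another gene and were also at 0, while Lce3d shares 49.3% of its words, the highest share of the family.

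The S100 fused-type proteins, named for a calcium-binding S100 domain joined to a long repeat region, gave the most varied picture: 4 of 7 had at least 10 counts. Tchh (ENSMUSG00000052415, chromosome 3, 93442330 to 93449077, plus strand), for trichohyalin of the hair follicle inner root sheath, had 45, 53, 22 and 23 counts in control and 82, 76, 53 and 70 counts in Klf4-transfected libraries. In CPM the groups overlapped, at 0.446 to 1.09 in control against 1.01 to 1.68, while within each batch they did not. The mean rose from 0.742 ± 0.329 to 1.4 ± 0.301 CPM (SD, n = 4), 1.89-fold (log2 fold change 0.96 with an SE of 0.21, edgeR adjusted p = 0.000935). Within batches the log2 fold change was 0.67 in batch 1, which alone missed the threshold (edgeR adjusted p = 0.0632), and 1.35 in batch 2.

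Rptn and Tchhl1 had too few counts for the test and are given by their raw counts. Rptn (ENSMUSG00000041984, chromosome 3, 93393699 to 93399442, plus strand), for repetin, a component of the envelope, had 0 counts in every control library and 30, 17, 22 and 6 counts in Klf4-transfected replicates 1 to 4. Replicate 4 was the lowest, and the groups did not overlap. Its mean of 0.372 ± 0.194 CPM (SD, n = 4) stood at least 5.99-fold above the floor of 3 counts per control library (two-sided exact permutation p = 0.0286, which 4 against 4 libraries cannot go below, adjusted p = 0.0429 over 3 such tests). With libraries relabelled within batches only, the smallest p of the design is 0.0556, and Rptn and Tchhl1 then miss the threshold at that value (two-sided exact permutation, adjusted p = 0.0833 for both). Rptn overlaps the exons of Gm37857 on the same strand, which had 0 counts in all libraries. Tchhl1 (ENSMUSG00000027908, chromosome 3, 93468754 to 93471980, plus strand), a relative of trichohyalin, had 1, 0, 0 and 0 counts in control and 9, 11, 25 and 25 counts in Klf4-transfected libraries. Its Klf4-transfected values were higher in batch 2, the opposite order to Sprr1a. The ratio of its 70 Klf4-transfected counts to 1 control count was 66.9 (two-sided exact permutation p = 0.0286, adjusted p = 0.0429). Its exact 95% counting interval was 11.6 to 2679, which covers counting error of the pooled reads and leaves out the spread between libraries. Rptn, Tchhl1 and Flg entered these 3 tests by having at least 10 counts over all libraries, a level reached through their Klf4-transfected libraries alone. Their p-values are thus fixed in part by that choice, and those of Rptn and Tchhl1 are not counted as support.

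The filaggrin genes gave almost nothing. Flg (ENSMUSG00000102439, chromosome 3, 93273523 to 93293686, plus strand), for filaggrin, which bundles keratin filaments, had 0 counts in control libraries and 7, 5, 0 and 1 counts in Klf4-transfected replicates 1 to 4. The reads lay almost wholly in batch 1, and the groups were not separated (two-sided exact permutation p = 0.143, adjusted p = 0.143). Hrnr, for hornerin, had 7 counts in Klf4-transfected replicate 1 and 0 elsewhere, Crnn, for cornulin, had 3 counts in Klf4-transfected replicate 3 and 0 elsewhere, and Flg2 had no count. The repeats of Flg, Flg2 and Hrnr make their counts uncertain: of the 50-base words in the longest transcript, 79.2% recur within Flg, 65.3% within Flg2 and 69.1% within Hrnr. How reads that match several places were counted is not given in the sources used here.

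Among genes with almost no control reads, the share that gained reads was near the background for the members. At most 3 counts in every control library were found for 45 members, and 3 of these, Rptn, Tchhl1 and Cnfn, had over 3 counts in every Klf4-transfected library. That is 6.67%, against 6.35% of the 6253 protein-coding genes that were as low in control and 1.6% of all 32160 such genes. Groups did not overlap, with Klf4-transfected libraries higher, for 7 of 50 members (14%) and for 15.2% of all protein-coding genes.

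On chromosome 3, 47 of the 50 members lie within 92080271 to 93471980 (GRCm38), the epidermal differentiation complex. Its members with at least 10 counts were Lor at 1 end, Sprr1a, and Flg, Rptn, Tchh and Tchhl1 toward the other end. The 40 other annotated genes of this interval were nearly all without a test: 14 had a count, 3 were tested and none was called. These 3, named after their values were seen, had log2 fold changes of 0.15 for Gm9774, 0.15 for Gm4202 and -0.75 for Rplp0-ps1 (edgeR adjusted p = 0.308, 0.0714 and 0.19). The tested members inside the interval, Lor, Sprr1a and Tchh, rose, as did the 3 members outside it, Cnfn, Evpl and Ppl. Of all tested genes 21.1% were higher. Lor, Sprr1a and Cnfn needed their Klf4-transfected libraries to be tested.

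**Figure D4:**
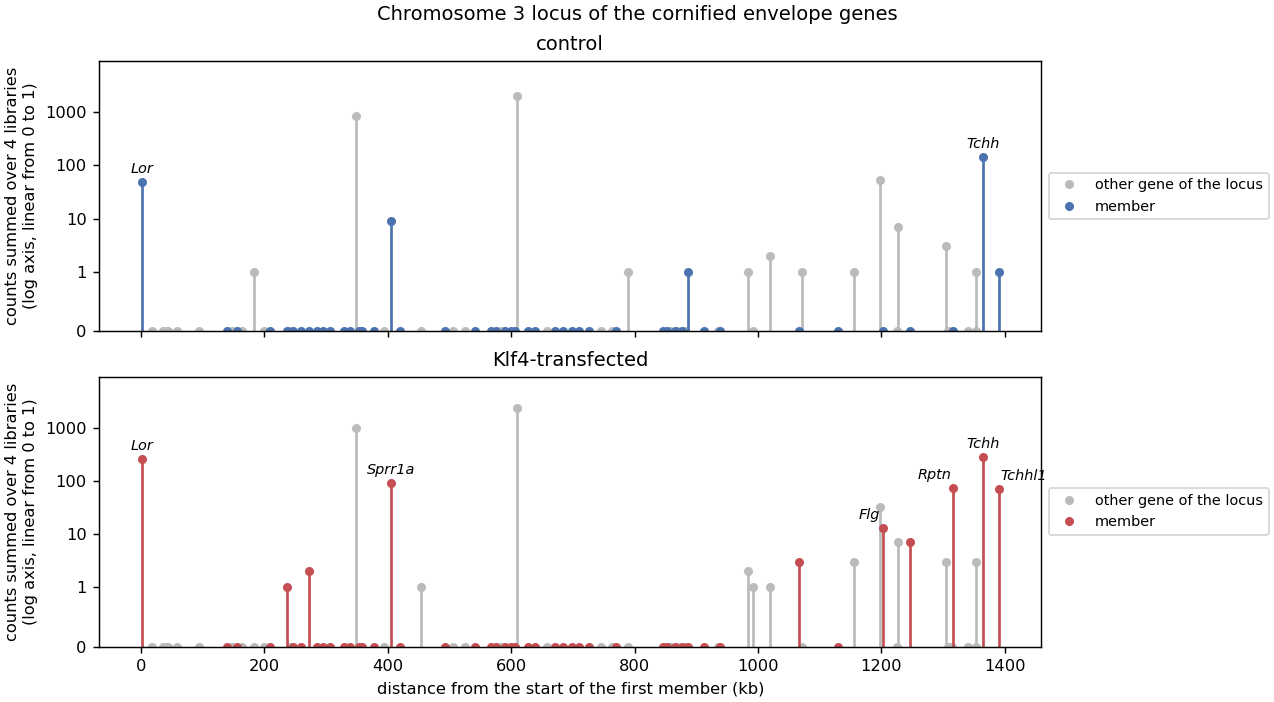
Counts summed over the 4 libraries of each group (vertical axis, logarithmic above 1 and linear from 0 to 1) against distance in kb from the start of the first member on chromosome 3, control above and Klf4-transfected below. Coloured points are cornified envelope members and grey points are the other annotated genes of the locus. The members in the middle of the locus, the late cornified envelope genes, stay at 0 in the lower panel, while Lor, Sprr1a, Rptn and Tchhl1 stand higher there than above.

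The enzymes and partners of envelope assembly were read first where control cells already expressed them. Of 56 other genes of cornification, a list drawn up with earlier results of these data known, 24 exceeded the filter's level in every control library. Of these 24 genes 18 rose and none fell, where 18.1% of all such genes were higher. By role, that was 1 of 2 crosslinking enzymes, 5 of 7 other precursors and cystatins, 3 of 4 desmosome and keratin genes, the 1 protease and processing gene, 4 of 5 lipid envelope genes and 4 of 5 regulators. A further 17 genes of the list were tested only because of their Klf4-transfected libraries. With those, 35 of 41 were higher, 6 did not pass the threshold and the median log2 fold change was 2.18 (-0.01 over all tested genes), values that the filter fixes in part. Tgm1, the transglutaminase that crosslinks the envelope in skin, had 16, 19, 10 and 8 counts in control and 721, 554, 780 and 759 counts in Klf4-transfected libraries. It rose from 0.275 ± 0.107 to 13.9 ± 1.14 CPM (SD, n = 4), 50.4-fold (log2 fold change 5.65 with an SE of 0.15, edgeR adjusted p = 1.76e-18), and it overlaps Gm49067 on the other strand. Tgm1 was among the 17 genes tested only because of their Klf4-transfected libraries, not among the 24. Its call is thus fixed in part by the filter. Tgm3, the transglutaminase of hair and late skin layers, had a log2 fold change of -0.31 (edgeR adjusted p = 0.435).

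The 5 genes of that list with the highest log2 fold change were Krt14 (11.55), Krtdap (10.64), Krt2 (10.12), Dsg3 (8.38) and Dsc3 (7.84), which encode 2 keratins, a secreted keratinocyte protein and 2 desmosomal cadherins. All 5 were tested only because of their Klf4-transfected libraries, so that their calls are fixed in part by the filter. Values this high with almost no control counts depend on edgeR's prior count. Krt2 had 0 control counts and stood at least 45.3-fold above the floor. Krt14, Krtdap and Dsg3 had 1 control count each, with ratios of 4506 (95% counting interval 808.3 to 178000), 2399 (430.1 to 94780) and 496.9 (88.8 to 19660). These intervals also leave out the spread between libraries. Dsc3 rose from 0.0309 ± 0.0396 to 7.65 ± 0.758 CPM (SD, n = 4, edgeR adjusted p = 1.3e-16). The regulator Trp63, which governs the epidermal lineage, had 0 counts in all 8 libraries, as did Csta1, Kprp and Lelp1.

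**Figure D5:**
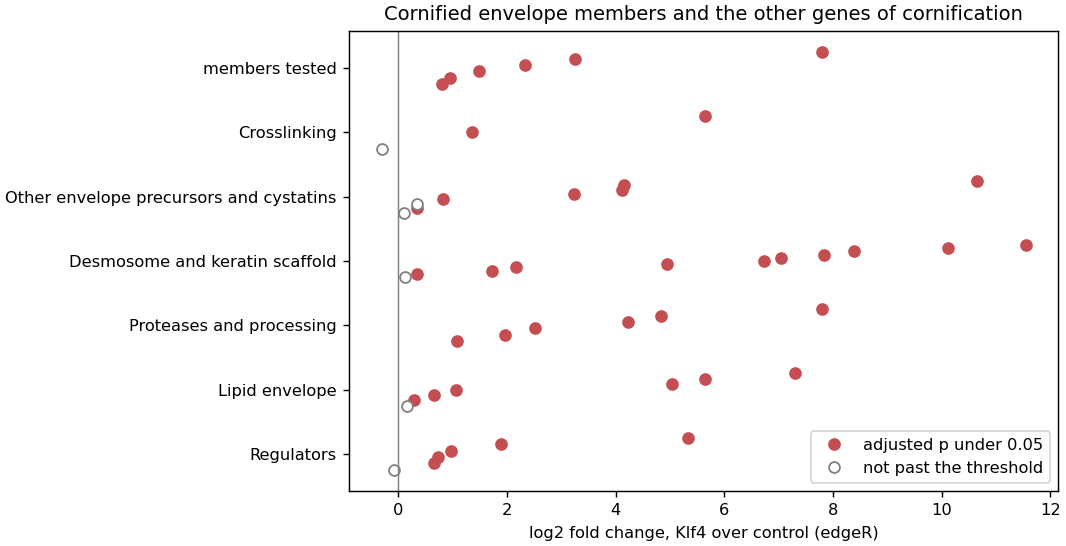
Log2 fold change of Klf4-transfected over control libraries (horizontal axis) for the 6 tested members and the 41 tested other genes of cornification, 1 point a gene, grouped by role. Filled points passed an adjusted p of 0.05 in edgeR and open points did not. No filled point lies below 0, and the highest values are in the desmosome and keratin group and in Krtdap.

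Markers of other cells moved beside these results and were read for the whole of each list. The 6 basal keratinocyte markers summed to 1.05 to 3.56 CPM in control and 28.9 to 45.2 CPM in Klf4-transfected libraries, with 4 of 4 tested higher and Trp63 at 0. Of those 4, Col17a1 alone exceeded the filter's level in every control library. Krt5, under the filter, had 2, 7, 3 and 7 counts in control and 12, 13, 9 and 11 counts in Klf4-transfected libraries. Most of the basal sum in Klf4-transfected libraries was Krt14 and Itgb4, with means of 23.1 and 10.3 CPM. The 5 suprabasal markers summed to 3.86 to 4.34 and 8.13 to 9.81 CPM. Among these, Krt2 and Dsg1a rose, both from at most 4 control counts, while Krt10 (3.86 ± 0.216 CPM in control, 4.22 ± 0.258 CPM with Klf4, SD, n = 4) did not pass the threshold. Krt1 had 0 control counts and at most 4 in a Klf4-transfected library, and Dsc1, under the filter, had 3 to 9 control counts and 6 to 29 in Klf4-transfected libraries. Of these 11 keratinocyte markers 8 also stand in the list of cornification genes. The 6 fibroblast markers went from 2.61 to 3.85 CPM in control to 21 to 27.4 CPM, with 3 of 4 tested higher (Col1a1, Dcn and Pdgfra), Col1a2 not past the threshold and Lum at 0 everywhere. Most of that sum was Dcn, without which it was 2.61 to 3.82 CPM in control and 5.44 to 6.97 CPM in Klf4-transfected libraries. Of the 4 tested fibroblast markers, Col1a1 and Col1a2 alone exceeded the filter's level in every control library. The 5 duct markers went from 54.1 to 84.5 CPM to 69.6 to 107 CPM, with 2 of 3 tested higher (Krt7 and Krt19) and Spp1 not past the threshold. Most of the duct sum was Krt7, with means of 68.4 and 85.9 CPM. Krt19, tested because of its Klf4-transfected libraries, went from a mean of 0.237 to 3.24 CPM. Under the filter, Sox9 had 1, 0, 0 and 0 counts in control and 6, 8, 10 and 18 with Klf4. Cftr had 0, 2, 0 and 2 against 9, 2, 4 and 1. The 3 tested immune markers and the 1 tested acinar marker did not pass the threshold, and Prss2 was at 0. Ptf1a, an acinar marker under the filter, had 1, 0, 0 and 0 counts in control and 18, 7, 12 and 15 counts in Klf4-transfected libraries. The part of other cell types in the rise of the members was not tested.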

How the data were processed

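The whole-number read counts per gene were deposited by the authors as 1 table with a column per library, without normalisation. The table's name mentions cutadapt trimming, and the submitters' processing notes list FastQC, STAR, featureCounts, edgeR and mm10. Versions, strand and multiple-match settings are not given in the sources used here. All 55536 identifiers and symbols matched GENCODE M21 (GRCm38). Counts were fitted in edgeR 4.0.16 (R 4.3.3) with filterByExpr (minimum count 10, 18266 genes kept), TMM factors, terms for batch and plasmid, and the quasi-likelihood test. The procedure was tested on simulated data. Pairs of libraries within a group differed beyond sampling noise (chi-square per degree of freedom 4.28 to 23.7). All 8 libraries were kept. Members, gene lists and named genes were chosen with earlier results of these data known: members with at least 10 counts are named, with the 5 highest changes among the other cornification genes, Tgm1, and called genes of the locus. Members under the filter with at least 10 counts over all libraries were compared by exact permutation over 70 relabellings, or 36 within batches (scipy 1.17.1). Replicate numbers come from the sample titles. Deviations of same-numbered libraries correlated at 0.603, 0.447, 0.557 and 0.495, and at -0.0458 and 0.0718 once batch means were removed. Alternatives were other scalings, filters, tests and thresholds, a replicate block, motifs on 1 strand and the omission of each library. RefSeq promoters matched 44 members.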

Additional observations from a re-analysis of the deposited data

Results flagged for a closer look

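The rise of Evpl differed between the batches by 0.4536 on the log2 scale (batch 2 minus batch 1, edgeR interaction test), with control means of 33.2 and 22.4 CPM and Klf4-transfected means of 79.7 and 73.7 CPM in batches 1 and 2. The log2 fold change of Klf4 itself differed by 0.3711 in the same direction (edgeR adjusted p = 0.0057), which DESeq2 did not call (adjusted p = 0.327). The part of the Klf4 level in the Evpl difference was not tested.

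Single control libraries stood apart from the other 3 of their group for Tchhl1 (0.02124 CPM in replicate 1), Krt14 (0.02072 CPM in replicate 4), Krtdap (0.02124 CPM in replicate 1) and Dsg3 (0.02029 CPM in replicate 3). Each of these values is 1 count, where the other 3 control libraries had 0 counts. With 3 libraries at 0 a lone count always stands apart, so the rate of about 1 in 20 groups that chance gives for continuous values does not describe these 4, and nothing is read from them.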

How the results depend on the processing

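The 6 tested members kept their direction and stayed past the threshold under every alternative in which they could be tested, 93 results in all. Of these members, Sprr1a and Cnfn entered the main fit through their Klf4-transfected libraries, and Lor did so in part. The unchanged calls of Lor, Sprr1a and Cnfn are not counted as support. The log2 fold changes ranged from 1.41 to 1.54 for Evpl, 0.74 to 0.85 for Ppl, 0.82 to 1.06 for Tchh, 2.21 to 2.58 for Lor, 2.95 to 3.52 for Sprr1a and 5.78 to 7.84 for Cnfn. Requiring 1 CPM in 4 or more libraries left 3 members, Evpl, Ppl and Tchh, all higher, and removed Lor, Sprr1a and Cnfn. With no filter 14 members were tested and 8 were higher, Rptn and Tchhl1 being added, and with each library left out in turn 6 to 8 were higher. With the replicate block in place of batch, 6 members and 35 other cornification genes were higher, as in the fit on batch, and no call on a member changed. Genes of the locus called higher numbered 0 to 1 with each library left out, the 1 being Gm4202 without Klf4-transfected replicate 2 (log2 fold change 0.19, edgeR adjusted p = 0.043). Over all genes, 2957 were higher and 1159 lower without a batch term and 3222 and 1696 at an adjusted p under 0.01, against 3856 and 2828. The DESeq2 1.42.0 test of the batch difference also called 1 member, Evpl. Searching the gene strand alone put CACCC in 9.09% of member promoters and 33.5% of all, against 52.3% and 57.5% on both strands. Relabelling within batches only, an alternative chosen after seeing the data, gave Rptn and Tchhl1 an exact permutation p of 0.0556, the smallest it allows, and neither then passed. At this depth a member with 0 counts in a library may still have a transcript at a level of up to 3 counts, for counting error only.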
